A study of Drosophila melanogaster with 15 samples.

Results

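The arrays described here are those of wing imaginal discs in which avl was knocked down, taken at 116 h and at 92 h after egg deposition. They were chosen by their titles, 3 arrays at each age, and make up 6 of the 15 arrays of the series. The wing disc is the larval epithelial sac that forms the adult wing and the back of the thorax. The knockdown larvae were w- and carried 1 copy of elav-GAL80 and 1 copy of a chromosome with both Rn-GAL4 and UAS Avl RNAi, and the labels give the morphology of their discs as neoplastic. Control larvae, also w-, carried 1 copy each of elav-GAL80 and Rn-GAL4 and no RNAi construct, and gave 3 arrays at 116 h and 3 at 92 h. The remaining 3 arrays were avl-RNAi discs at 168 h. All larvae were in the third instar, in the w1118 background, reared at 25C from 2 h egg collections, and all carried elav-GAL80, which blocks GAL4 in neurons. The rn driver is active in the wing pouch, so knocked-down and unmanipulated cells of a disc were measured together. In such bulk samples, fewer cells of a type and less RNA per cell cannot be told apart. Total RNA, 200 ng per labelling, was hybridized to Affymetrix 1-colour arrays.

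Avl, now named Syx7, is a syntaxin that lets endocytic vesicles fuse with early endosomes. Loss of endocytic sorting genes disturbs apical-basal polarity in fly discs and is known to give overgrown, disorganised tissue. JNK signalling, which ends in the transcription factors Jra and kay, and JAK/STAT signalling, which is started by secreted Unpaired proteins, are the damage pathways best known in such discs. The comparison asks what changed in the knockdown discs over the later part of the third instar, and the control discs of the same ages show what changed in discs without the knockdown. No probe set with a single gene symbol was named for Syx7, Mmp1 or upd3, so these genes were not analysed here and the knockdown could not be read from its target.

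Values are log2 expression of 1 probe set per gene, for 11982 genes, and differences are log2, 116 h minus 92 h, with their standard error, for 3 arrays per group. Fold changes are given beside the largest. The median over the probe sets of an array was 4.74 to 4.79. Fold changes from values near or below it, as for TwdlE, upd2 and Ets21C at 92 h, can depend on background. A gene is said to have risen or fallen where the adjusted p was under 0.05. All p-values are from limma, 2-sided, adjusted over all genes by the Benjamini-Hochberg method. The interaction is the change in avl-RNAi discs minus the change in control discs, tested in the same fit. The named genes follow a rule of size and of membership in gene lists. Genes marked † were named after their values were seen and are outside the counts and single-gene checks of named genes. List counts cover measured members only, and some well-known members were not analysed here. The lists are described by counts and medians, to be read against all genes: in avl-RNAi discs 14.8% rose and 20.6% fell, with a median change of -0.011, and in control discs 13.2% rose and 13.8% fell, with a median of -0.014.

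Arrays of avl-RNAi discs were alike within an age, with correlations across probe sets of 0.9947 to 0.9953 at 116 h and 0.9946 to 0.9962 at 92 h. Arrays of different ages correlated at 0.9785 to 0.9875. Of the 10 measured wing disc markers none rose and 2 fell, and their mean was 8.22 to 8.49 on the arrays at 116 h and 8.45 to 8.63 at 92 h. In control discs 5 of the 10 rose, and 5 had a negative interaction. Markers of other larval tissues were present and differed between ages, with values given at the end of the results.

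Between 92 and 116 h, 4247 genes (35.4%) passed the test in avl-RNAi discs. The 1773 that rose were 14.8% of all genes and the 2474 that fell 20.6%. Of the larger changes more were rises: 245 genes (2.04%) rose at least 2-fold and 129 (1.08%) fell at least 2-fold. With each array centred on its own median the split was 1276 risen of 4226, or 30.2%, against 41.7% as deposited. In control discs 3232 genes (27.0%) passed the same test, 1584 up (13.2%) and 1648 down (13.8%), of which 218 (1.82%) and 155 (1.29%) changed at least 2-fold. The 3 arrays of one age all lay above or all below those of the other for 5066 genes (42.3%) in avl-RNAi discs and for 5113 (42.7%) in control discs. The interaction passed for 2175 genes (18.2%), positive for 913 (7.62%) and negative for 1262 (10.5%), and it was at least 1 in size on the log2 scale for 221 (1.84%) and 153 (1.28%) of these.

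Part of the change was shared with control discs. Of the 1773 genes that rose in avl-RNAi discs, 758 also rose in control discs, which is 42.8% of the avl-RNAi rises and 47.9% of the control rises. The 1092 genes that fell in both made up 44.1% of the avl-RNAi falls and 66.3% of the control falls. Among the 2-fold rises of avl-RNAi discs, 122 of 245 (49.8%) also rose in control discs and 33 fell there. Among the 2-fold falls, 90 of 129 (69.8%) also fell in control discs and 5 rose. The median change of the 245 genes was 1.39 in avl-RNAi discs and 0.36 in control discs, and that of the 129 genes was -1.44 and -1.20. These genes were chosen for their change in avl-RNAi discs, so their larger size there is a description.

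**Figure D1:**
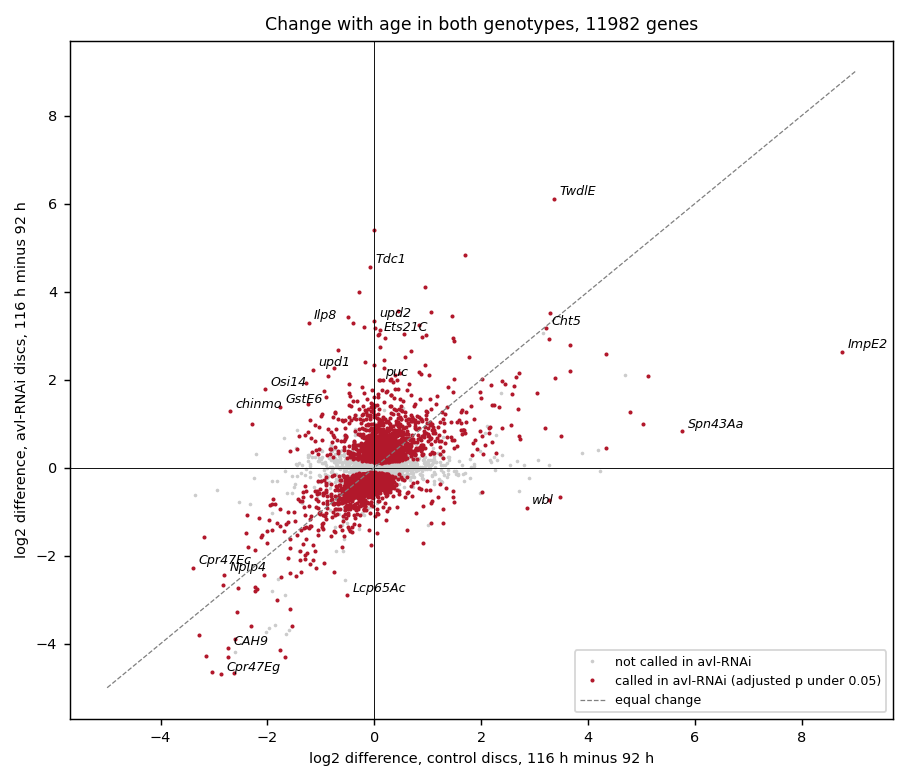
Each point is 1 of 11982 genes. The vertical axis is the log2 difference, 116 h minus 92 h, in avl-RNAi discs, the horizontal axis the same difference in control discs, red points passed the test in avl-RNAi discs and the dashed line marks equal change. Tdc1, Ilp8 and upd2 lie high on the vertical axis with a change in control discs near or below 0, TwdlE and Cht5 rose in both, and ImpE2 and Spn43Aa lie far to the right, with larger rises in control discs.

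More JNK cascade genes rose than fell, and the measured JNK targets rose. Of the 14 measured cascade genes, 9 rose and 2 fell, with a median of 0.32, against -0.011 over all genes. In control discs 4 rose and 0 fell, with a median of 0.15, against -0.014 over all genes. puc encodes the phosphatase that switches JNK off and is itself a standard readout of the pathway. It read 9.48, 9.62 and 9.88 on the arrays at 116 h, against 7.57, 7.59 and 7.83 at 92 h. The ages did not overlap, and the difference was 1.998 ± 0.10, a 3.99-fold rise (adjusted p = 1.08e-08). In control discs puc read 7.64, 7.76 and 7.73 at 116 h and 7.66, 7.51 and 7.66 at 92 h, and its change of 0.10 ± 0.10 did not pass the test. The interaction was 1.90 ± 0.14 (adjusted p = 8.49e-07).

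Other members of the cascade rose less. Jra, the fly Jun, rose by 0.80 ± 0.057 in avl-RNAi discs and by 0.39 ± 0.057 in control discs. Traf4, an adaptor of TNF receptor signalling, rose by 0.78 ± 0.077 in avl-RNAi discs and changed by 0.16 ± 0.077 in control discs, which did not pass. kay†, the fly Fos, rose by 1.10 ± 0.12, and also rose in control discs, by 0.73 ± 0.12. The 2 TNF receptors went apart: grnd† rose by 0.58 ± 0.064, while wgn† fell by 0.58 on the log2 scale. Their ligand egr† had a change of -0.18 ± 0.13 in avl-RNAi discs that did not pass, against a rise of 0.47 ± 0.13 in control discs. The kinases showed little change at the level of RNA. bsk†, the JNK itself, fell by 0.23 on the log2 scale, and hep† changed by -0.068 ± 0.058, which did not pass.

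All 10 measured JNK targets rose, at a median of 1.72, in a list chosen with earlier results of these data known. This list and the cascade list share puc, so the counts of both include it. In control discs 3 of them rose and 4 fell, and 8 had a positive interaction. Ilp8, the relaxin-like hormone by which damaged discs delay pupariation, read 10.81, 10.39 and 10.63 at 116 h, against 6.99, 7.75 and 7.20 at 92 h. Every array at 116 h lay far above every array at 92 h, with a difference of 3.30 ± 0.16, or 9.83-fold (adjusted p = 6.93e-09). In control discs Ilp8 went the other way and fell, at 4.66, 4.51 and 4.60 at 116 h and 5.99, 5.75 and 5.72 at 92 h. The interaction of 4.53 ± 0.22 was among the 5 largest positive ones of genes called in avl-RNAi discs (adjusted p = 1.73e-08).

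Ets21C, an ETS transcription factor of stress responses, read 6.98, 6.82 and 6.97 at 116 h, against 3.85, 4.07 and 3.82 at 92 h. It rose by 3.01 ± 0.087, or 8.07-fold (adjusted p = 3.69e-11). Control discs read 3.93, 3.90 and 3.96 at 116 h and 3.79, 3.87 and 3.91 at 92 h. The avl-RNAi values at 92 h were near these, with the array at 4.07 above all of them. scaf, a secreted protease-like protein, read 11.64, 11.57 and 11.40 at 116 h, against 9.10, 9.38 and 9.32 at 92 h, again without overlap. Its rise was 2.27 ± 0.10 (adjusted p = 3.2e-09). Pvf1, a ligand of the PDGF and VEGF receptor Pvr, read 8.51, 8.14 and 8.25 at 116 h, against 5.15, 4.95 and 5.11 at 92 h. It rose 9.4-fold (difference 3.23 ± 0.11), and it rose in control discs too, by 0.83 ± 0.11, with an interaction of 2.40 ± 0.15. The receptor Pvr† rose by 0.47 ± 0.088.

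The other 5 targets fell into 2 patterns. Atf3†, a bZIP factor, rose by 0.71 ± 0.11 in avl-RNAi discs and changed by -1.41 ± 0.11 in control discs, where it fell. ftz-f1†, a nuclear receptor, showed 0.38 ± 0.11 and -1.57 ± 0.11, and cher†, the filamin that crosslinks actin, 0.40 ± 0.067 and -0.57 ± 0.067, in the same order and with the same directions. Mmp2, a matrix metalloprotease, and Timp, the inhibitor of such proteases, rose in both genotypes. Mmp2 rose by 1.44 ± 0.13 in avl-RNAi discs and by 1.15 ± 0.13 in control discs, and Timp by 1.27 ± 0.089 and 1.61 ± 0.089, and neither interaction passed.

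**Figure D2:**
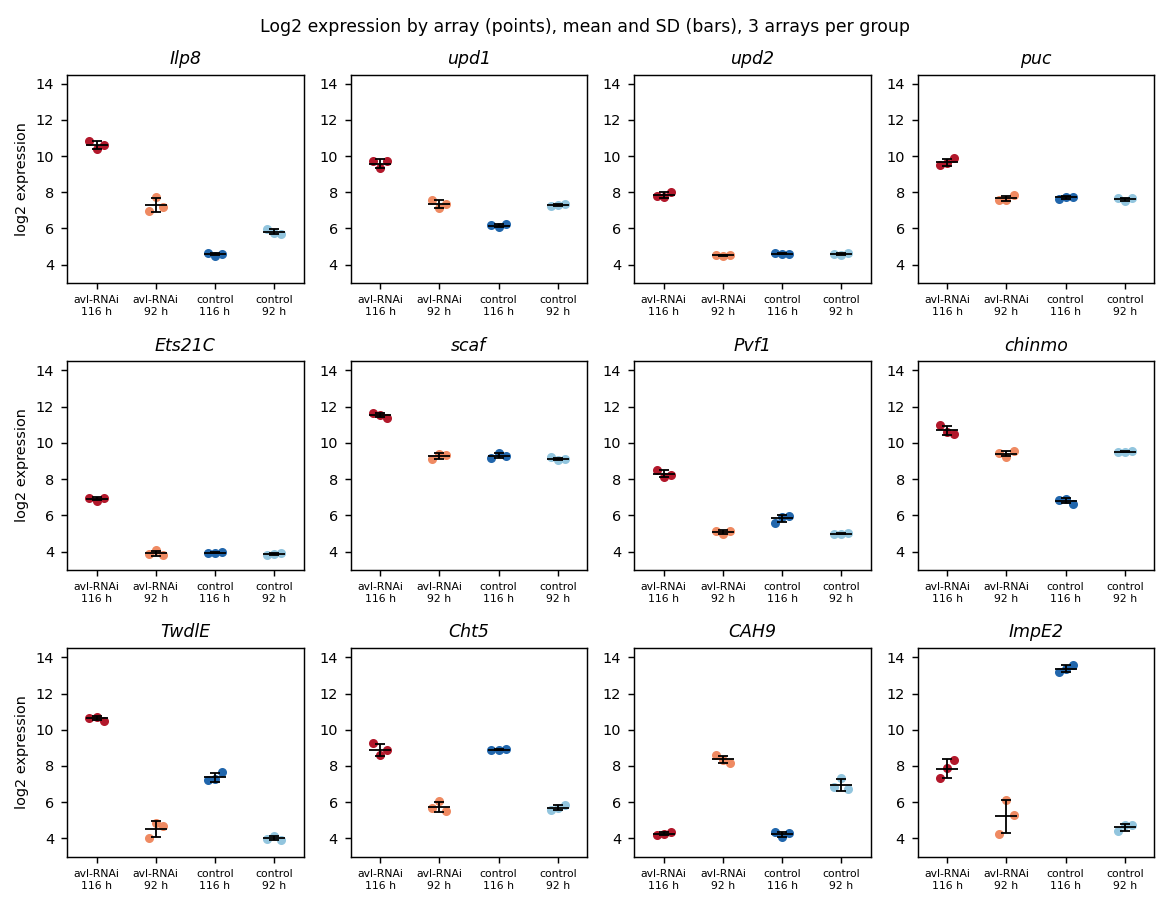
Log2 expression on each array (points) with the mean and SD (bars) for 12 genes, in avl-RNAi discs at 116 h and 92 h and control discs at 116 h and 92 h, 3 arrays each. The first 7 genes and TwdlE stand above all other groups in avl-RNAi discs at 116 h, chinmo is high there and low in control discs at 116 h, Cht5 rose and CAH9 fell in both genotypes, and ImpE2 is highest in control discs at 116 h.

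The 2 measured JAK/STAT ligands rose, and hop, Socs36E and upd3 were not analysed here. Of 9 measured members 6 rose and none fell, with a median of 0.43. In control discs 1 rose and 2 fell, and 6 of the 9 had a positive interaction. upd2 read 7.78, 7.74 and 8.03 at 116 h, against 4.51, 4.48 and 4.54 at 92 h. It rose by 3.34 ± 0.11, or 10.1-fold (adjusted p = 1.09e-10), while control discs read 4.63, 4.59 and 4.59 at 116 h and 4.60, 4.56 and 4.66 at 92 h. Its values at 92 h were as low as in control discs. upd1 was readable at 92 h and rose further: it read 9.72, 9.32 and 9.70 at 116 h and 7.57, 7.14 and 7.38 at 92 h, a difference of 2.22 ± 0.11 (adjusted p = 1.27e-08). In control discs upd1 fell, with 6.17, 6.07 and 6.22 at 116 h and 7.24, 7.31 and 7.35 at 92 h, and the interaction was 3.37 ± 0.16.

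Ptp61F and Socs44A†, which damp the pathway, rose by 0.66 ± 0.056 and 0.45 ± 0.046. The receptor dome† rose by 0.28 ± 0.05, and ken†, a repressor of some STAT targets, by 0.43 ± 0.082. Stat92E†, the transcription factor, had a change of -0.18 ± 0.076 that did not pass.

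The gene chinmo, a BTB zinc-finger factor of early larval stages, rose in avl-RNAi discs and fell in control discs. It read 10.98, 10.58 and 10.50 at 116 h, against 9.42, 9.25 and 9.54 at 92 h in avl-RNAi discs, and 6.84, 6.92 and 6.65 at 116 h, against 9.51, 9.49 and 9.54 at 92 h in control discs. The ages did not overlap in either genotype, with a rise of 1.28 ± 0.11 in avl-RNAi discs (adjusted p = 1.63e-06) and a change of -2.71 ± 0.11 in control discs. The interaction was 3.99 ± 0.16 (adjusted p = 3.69e-09). The 3 probe sets of chinmo gave differences of 0.25 to 1.31 in avl-RNAi discs. Of the 7 temporal factors measured, 3 rose and none fell in avl-RNAi discs, and 4 rose and 2 fell in control discs. With median centring 1 rose, since the calls of lin-28 and mamo were lost (adjusted p = 0.0715 and 0.118). With the means of gut, muscle and fat body markers as covariates 1 rose and 1 fell. The list median was 0.16 with these covariates and 0.097 without. The call of mamo was also lost without any of 5 arrays, all but replicate 2 at 116 h (adjusted p of 0.0506 to 0.134). br†, the Broad factor of late larval stages, changed by -0.032 ± 0.11 in avl-RNAi discs, which did not pass, and rose by 0.82 ± 0.11 in control discs. Syp† showed 0.097 ± 0.12 and 0.97 ± 0.12, and Imp†, its opponent in neural timing, -0.0067 ± 0.088 and -0.89 ± 0.088. The interaction passed for br, Syp and Imp.

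The ImpE genes, which are induced by the moulting hormone ecdysone, changed less in avl-RNAi discs than in control discs, with negative interactions that passed for all 3. Of 24 ecdysone response genes measured, 9 rose and 3 fell (median 0.11), and in control discs 8 rose and 2 fell. Median centring left 5 rises in avl-RNAi discs and the tissue covariates 2, with a list median of 0.12 in the fit with the covariates. ImpE2, named for its induction by ecdysone in discs, read 7.31, 7.91 and 8.34 at 116 h, against 4.26, 6.11 and 5.29 at 92 h. It rose by 2.63 ± 0.36 (adjusted p = 6.96e-05), and its arrays at 92 h spanned 4.26 to 6.11. In control discs it read 13.19, 13.35 and 13.56 at 116 h, against 4.39, 4.72 and 4.74 at 92 h. That rise of 8.75 ± 0.36 made the interaction -6.12 ± 0.51 (adjusted p = 2.44e-06). ImpE1† rose by 1.71 ± 0.27 in avl-RNAi discs and by 3.05 ± 0.27 in control discs. ImpE3† and the nuclear receptor Eip78C† changed by 0.33 ± 0.18 and -0.045 ± 0.11 in avl-RNAi discs, neither passing, against rises of 3.88 ± 0.18 and 2.26 ± 0.11 in control discs.

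Other hormone-linked genes differed in whether control discs changed the same way. ImpL2†, which binds insulin-like peptides and holds back their action, rose by 1.28 ± 0.20 in avl-RNAi discs and changed by -0.067 ± 0.20 in control discs, with an interaction of 1.34 ± 0.29. EcR†, the ecdysone receptor, rose by 0.40 ± 0.12, and its change of -0.29 ± 0.12 in control discs did not pass, with an interaction of 0.69 ± 0.18 (adjusted p = 0.015). Edg91, a cuticle gene, fell by 1.36 on the log2 scale in avl-RNAi discs, and fell in control discs too, with a change of -1.22 ± 0.16. Of the 8 juvenile hormone genes 3 rose, led by the hydrolase Jheh2 at 0.99 ± 0.089, and Jhe† fell. Kr-h1, the main target of juvenile hormone, rose by 0.67 ± 0.12 in avl-RNAi discs and by 0.64 ± 0.12 in control discs.

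Genes of the extracellular matrix and of its receptors rose more often than they fell. Of 19 extracellular matrix genes 10 rose and 2 fell in avl-RNAi discs, at a median of 0.31, against 5 and 3 in control discs. scb, an integrin alpha chain, read 8.66, 8.94 and 9.03 at 116 h, against 7.07, 7.25 and 6.96 at 92 h, a rise of 1.78 ± 0.16 without overlap (adjusted p = 1.77e-06). In control discs its change was 0.44 ± 0.16, and the interaction passed at 1.34 ± 0.22. Tig†, a matrix ligand of integrins, rose by 2.67 ± 0.27, and SPARC†, which binds collagen, by 0.51 ± 0.094. The collagen genes vkg† and Col4a1† changed by -0.21 ± 0.15 and -0.26 ± 0.16 and did not pass.

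Cell death genes were mixed. Of 10 measured, 6 rose and 2 fell. p53 read 9.50, 9.22 and 9.40 at 116 h, against 8.32, 8.21 and 8.29 at 92 h, and rose by 1.10 ± 0.071 (adjusted p = 1.14e-07), while the change in control discs was 0.093 ± 0.071. Corp†, which acts on p53, rose by 1.04 ± 0.14. The initiator caspase Dronc† rose by 0.29 ± 0.058 and also in control discs by 0.50 ± 0.058. Buffy, a Bcl-2 family member that protects cells, fell by 0.63 on the log2 scale, and Debcl, its pro-death relative, rose by 0.44 ± 0.058. grim† and skl†, which neutralise inhibitors of apoptosis, changed by -0.005 ± 0.12 and -0.13 ± 0.071 and did not pass. From this list rpr, hid, Drice, Diap1 and Xrp1 were not analysed here.

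The endosomal sorting machinery, in which avl itself acts, had more rises than falls. Of 20 genes of early endosomes and ESCRT complexes, which bend membrane into multivesicular bodies, 14 rose and none fell (median 0.35). In control discs 7 rose and 1 fell (median 0.13), and the interaction was positive for 10 and negative for 1. ALiX, an ESCRT partner, read 10.77, 10.61 and 10.66 at 116 h, against 9.81, 9.87 and 9.79 at 92 h, a rise of 0.85 ± 0.053 (adjusted p = 8.09e-08). Chmp1 rose by 0.99 ± 0.068 and TSG101, an ESCRT-I subunit, by 0.62 ± 0.043. The ESCRT-III subunits shrb†, Vps2† and CHMP2B† rose by 0.72 ± 0.10, 0.67 ± 0.061 and 1.09 ± 0.12, against 0.068 ± 0.10, 0.11 ± 0.061 and 0.15 ± 0.12 in control discs. The ESCRT-II genes stood apart from this: Vps25† and lsn† changed by 0.064 ± 0.093 and -0.11 ± 0.09 without passing, and Vps36† rose by 0.18 ± 0.055.

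Autophagy genes changed by smaller amounts. Of 21, 11 rose and none fell in avl-RNAi discs (median 0.15), and 8 rose in control discs (median 0.13). With median centring 8 rose and 2 fell in avl-RNAi discs. Atg8a, the ubiquitin-like mark of autophagosomes, rose by 0.42 ± 0.054 and by 0.30 ± 0.054. Of 18 polarity and junction genes 8 rose and 1 fell in avl-RNAi discs, with changes between -0.30 and 0.28. crb, the apical determinant, rose by 0.26 ± 0.052 in avl-RNAi discs and by 0.28 ± 0.052 in control discs, and scrib†, a basolateral one, rose by 0.23 ± 0.054 and changed by -0.14 ± 0.054. With array centring on the median 4 of the 18 rose, and with the list means of gut, muscle and fat body as covariates none did. The median of the list was 0.18 with the covariates and 0.14 without.

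Genes of the cell cycle and of DNA replication fell. Of 18 cell cycle genes none rose and 15 fell in avl-RNAi discs (median -0.40), against 2 that rose and 8 that fell in control discs (median -0.19). The interaction was negative for 10 of the 18. CycA, Cdk1, stg, E2f1, polo and aurA were not analysed here. aurB, the kinase that guides chromosome segregation, read 9.44, 9.55 and 9.45 at 116 h, against 10.11, 10.07 and 10.08 at 92 h, and fell by 0.61 on the log2 scale (adjusted p = 7.43e-07). The mitotic regulators mad2† and fzy† changed by -0.70 ± 0.084 and -0.64 ± 0.062, and CycE†, the S-phase cyclin, by -0.58 ± 0.21, and each of these falls passed the test. All 22 DNA replication genes fell in avl-RNAi discs, and all 22 fell in control discs as well. Their medians were -0.51 in avl-RNAi discs and -0.43 in control discs. Prim1 and Prim2, the primase subunits, changed by -0.77 ± 0.056 and -0.84 ± 0.063, against -0.49 ± 0.056 and -0.51 ± 0.063 in control discs.

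Mitochondrial genes fell in both genotypes. Of 73 oxidative phosphorylation genes 51 fell and 1 rose in avl-RNAi discs (median -0.36), and 47 fell in control discs (median -0.23). Of 69 mitochondrial ribosomal proteins 61 fell and 2 rose, against 54 and 0 in control discs. ND-75, a core subunit of complex I, changed by -0.55 ± 0.037 in avl-RNAi discs and -0.42 ± 0.037 in control discs, and mRpL18 by -0.94 ± 0.073 and -0.49 ± 0.073, all of them called falls. Larval muscle markers fell on the same arrays in both genotypes. With the tissue covariates 25 of the 73 and 26 of the 69 fell in avl-RNAi discs. The list medians were then -0.29 and -0.28, against -0.36 and -0.34 without the covariates. Over all 11982 genes 1010 fell in that fit, against 2474 without. The part of muscle in the falls of mitochondrial genes was not tested. Of 40 proteasome genes 26 fell in avl-RNAi discs (median -0.37) and 23 in control discs (median -0.17), and 16 had a negative interaction. Rpt4, an ATPase of the proteasome cap, read 10.33, 10.40 and 10.40 at 116 h, against 11.004, 10.997 and 10.998 at 92 h, and fell by 0.62 on the log2 scale.

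Cytosolic ribosomal proteins did not share this fall. Of 34, 3 rose and 3 fell, with a median of 0.013, and RpS19b, with a change of -0.89 ± 0.092, was the lowest of them. With median centring none rose and 4 fell. Of 40 translation initiation genes 8 rose and 12 fell, but quantile normalization gave 13 rises and 9 falls, and median centring 4 rises and 12 falls. V-ATPase subunits, the proton pump of endosomes, had 2 rises and 1 fall among 31, with quantile normalization 5 and 1 and with median centring 1 and 4. Of 12 glycolysis genes 4 rose and 2 fell, with a median of 0.039, and Ldh, PyK and Gapdh2 were not analysed here. In the insulin and TOR list 4 of 10 rose and 2 fell. S6k, the growth kinase below TOR, rose by 0.59 ± 0.047 in avl-RNAi discs and changed by -0.081 ± 0.047 in control discs, and InR, the insulin receptor, rose by 0.61 ± 0.11 and 1.004 ± 0.11. mTor fell by 0.27 on the log2 scale in avl-RNAi discs.

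**Figure D3:**
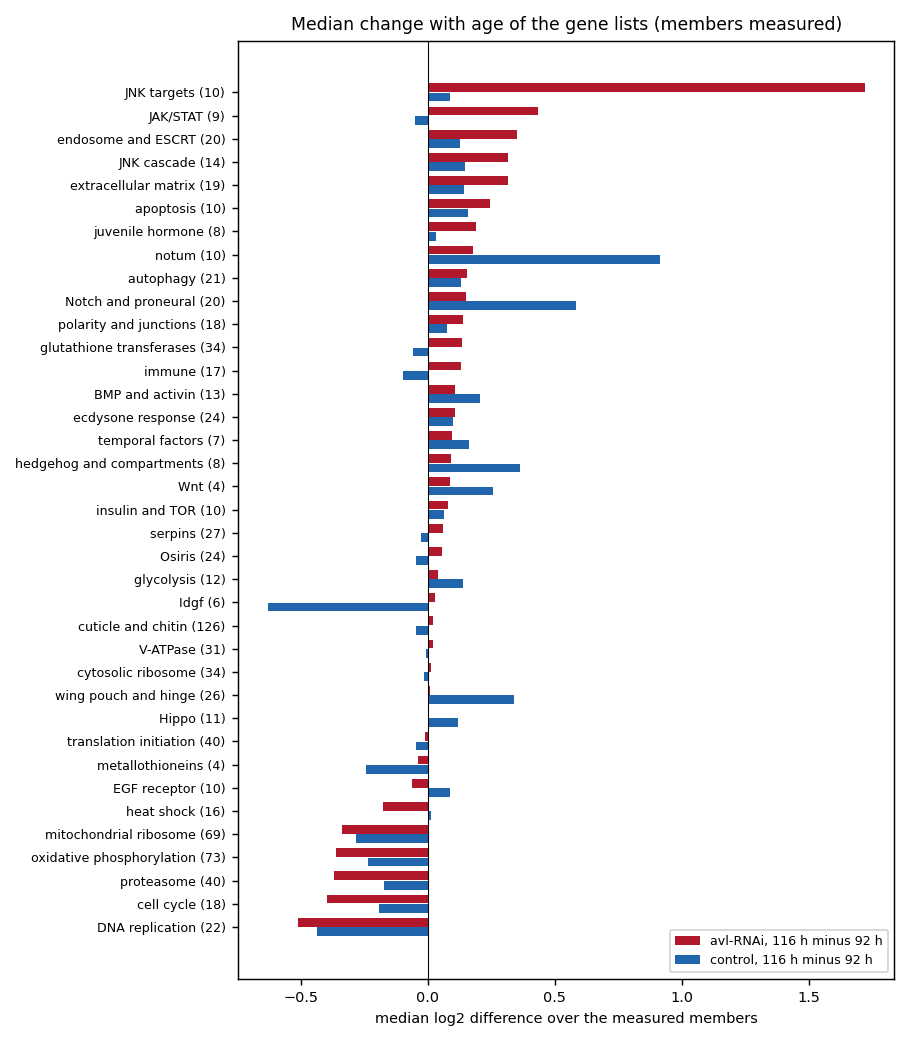
Median log2 difference, 116 h minus 92 h, over the measured members of each gene list, in avl-RNAi discs (red, upper bar) and control discs (blue, lower bar). The lists of cell type and tissue markers are not shown, among them larval muscle with a median of -1.47 in avl-RNAi discs. Of the lists shown, JNK targets have the highest median in avl-RNAi discs at 1.72 and DNA replication the lowest at -0.51. Notum genes show 0.18 in avl-RNAi discs beside 0.91 in control discs.

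Patterning genes that rose in control discs often did not rise in avl-RNAi discs. Of 10 genes of the notum, the thoracic part of the disc outside the driver's pouch domain, 4 rose and 1 fell in avl-RNAi discs (median 0.18), and 9 rose in control discs (median 0.91). The interaction was negative for 9 of the 10. sr, the factor of tendon cells, read 4.88, 4.98 and 4.98 at 116 h, against 3.90, 4.20 and 4.02 at 92 h in avl-RNAi discs, and 6.06, 6.28 and 6.18 at 116 h, against 3.82, 3.71 and 3.80 at 92 h in control discs. It rose in both, by 0.91 ± 0.082 and by 2.40 ± 0.082, with an interaction of -1.49 ± 0.12 (adjusted p = 1.17e-06). pnr, the GATA factor of the dorsal notum, changed by -0.45 ± 0.17 in avl-RNAi discs, which did not pass, and rose by 0.72 ± 0.17 in control discs. Without replicate 2 at 116 h, the fall of pnr in avl-RNAi discs passed at adjusted p = 0.000627.

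Genes of the pouch and hinge, where the driver is active, had 7 rises and 5 falls among 26 in avl-RNAi discs, and 15 rises and 2 falls in control discs. The interaction was negative for 12 and positive for 4. dve, a homeodomain factor of the pouch, read 7.27, 7.56 and 7.62 at 116 h, against 8.35, 8.41 and 8.40 at 92 h, and fell by 0.90 on the log2 scale (adjusted p = 6.61e-06). In control discs dve rose by 0.43 ± 0.094, so the interaction was -1.33 ± 0.13. Doc1, a T-box factor, changed by -0.65 ± 0.12 in avl-RNAi discs, a fall, and rose by 0.71 ± 0.12 in control discs. fj, a Golgi kinase of planar polarity, rose by 0.39 ± 0.066 and by 0.49 ± 0.066. vg†, rn† and ap†, selectors of wing fate, changed by -0.23 ± 0.095, -0.15 ± 0.09 and 0.015 ± 0.09, and none passed. The fall of nub, a pouch POU factor, was -0.30 ± 0.11 and was lost when any of 5 single avl-RNAi arrays was left out, all but replicate 1 at 92 h, at adjusted p of 0.0691 to 0.186.

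Notch, proneural and compartment genes changed in fewer members than in control discs, by count. Of 20 Notch and proneural genes 5 rose and 1 fell in avl-RNAi discs, against 13 rises in control discs, and 7 had a negative interaction. N and Ser were not analysed here. E(spl)malpha-BFM, a Notch target, rose in both, by 1.03 ± 0.11 and 1.43 ± 0.11. sens†, the factor of sensory organ precursors, read 3.89, 3.96 and 3.97 on the avl-RNAi arrays at 116 h, against 3.83, 3.81 and 3.67 at 92 h, and the change of 0.17 ± 0.096 did not pass. In control discs sens read 5.92, 6.28 and 6.36 at 116 h, against 3.92, 3.89 and 3.89 at 92 h, a rise of 2.29 ± 0.096 with an interaction of -2.12 ± 0.14. None of 8 hedgehog and compartment genes passed in avl-RNAi discs, and 6 rose in control discs. With quantile normalization ci and en rose in avl-RNAi discs (adjusted p = 0.0437 and 0.0477), and ci also passed without replicate 1 at 116 h (adjusted p = 0.00258). en, the posterior selector, and hh, its signal, changed by 0.15 ± 0.069 and 0.28 ± 0.12, against rises of 0.54 ± 0.069 and 0.49 ± 0.12 in control discs. The change of hh passed without replicate 2 or replicate 3 at 92 h (adjusted p = 0.037 and 0.0452).

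Growth factor pathways of patterning differed in how many members were called, to be read against 35.4% of all genes. Of 13 BMP and activin genes 3 rose in avl-RNAi discs and none fell, against 5 rises in control discs. Quantile normalization gave 5 rises and median centring 1. dlp, a glypican that carries such ligands, rose by 0.60 ± 0.068, and dpp†, the BMP of the disc, changed by -0.021 ± 0.14 and did not pass. None of the 4 measured Wnt genes passed, and Wnt6 changed by 0.19 ± 0.081, though without replicate 2 at 116 h its rise passed at adjusted p = 0.00182. In the EGF receptor list 2 of 10 rose and 3 fell. Krn, a ligand, rose by 0.50 ± 0.071 in avl-RNAi discs and by 0.63 ± 0.071 in control discs, and S, the Star protein that helps such ligands mature, fell by 0.43 on the log2 scale. Of 11 Hippo pathway genes 3 rose and 2 fell, and yki, the growth co-activator, rose by 0.25 ± 0.047 and by 0.30 ± 0.047.

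Among the named genes TwdlE had the largest rise and Cpr47Eg the largest fall, both members of cuticle families of similar sequence, whose probe sets can respond to relatives. The list of cuticle and chitin genes had 126 measured members, of which 24 rose and 29 fell. These counts are close to the 14.8% and 20.6% over all genes. Of the 126, 8 rose and 16 fell at least 2-fold, larger shares than the 2.04% and 1.08% over all genes. TwdlE, a cuticle protein of the Tweedle family, read 10.64, 10.72 and 10.51 at 116 h, against 4.01, 4.86 and 4.66 at 92 h, a rise of 6.11 ± 0.18 or 69.3-fold (adjusted p = 3.69e-11). In control discs it rose as well, by 3.37 ± 0.18, and the interaction was 2.74 ± 0.25. Cht5, a chitinase of moulting, read 9.25, 8.58 and 8.89 at 116 h, against 5.69, 6.05 and 5.49 at 92 h. Its rise of 3.16 ± 0.15 in avl-RNAi discs stood beside 3.21 ± 0.15 in control discs, and the difference between the changes was -0.05 ± 0.22.

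Several falls of larval cuticle genes were also large. Cpr47Eg read 5.07, 5.05 and 5.04 at 116 h, against 9.87, 9.12 and 10.26 at 92 h, a change of -4.70 ± 0.23 (adjusted p = 8.51e-09). Lcp65Ag3 changed by -3.89 ± 0.19, Lcp65Ac by -2.90 ± 0.20 and Lcp65Ae by -2.36 ± 0.15, all called falls. In control discs the same genes changed by -2.86 ± 0.23, -2.60 ± 0.19, -0.51 ± 0.20 and -0.76 ± 0.15, and the change of Lcp65Ac did not pass there. CAH9, a carbonic anhydrase, read 4.17, 4.25 and 4.35 at 116 h, against 8.59, 8.33 and 8.17 at 92 h, and it fell in both genotypes, with changes of -4.10 ± 0.15 and -2.73 ± 0.15. Nplp4, listed as a neuropeptide-like precursor, changed by -2.44 ± 0.20 in avl-RNAi discs and -2.81 ± 0.20 in control discs. Cpr47Ec changed by -2.27 ± 0.23 and -3.39 ± 0.23, Cpr97Eb by -2.28 ± 0.15 and -1.09 ± 0.15, and Lcp9 by -1.98 ± 0.47 and -1.29 ± 0.47, where the control change of Lcp9 did not pass.

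Genes of amine synthesis and secreted or membrane proteins were among the 15 largest rises. Tdc1, a tyrosine decarboxylase that starts tyramine synthesis, read 9.75, 9.17 and 9.50 at 116 h, against 5.06, 4.75 and 4.91 at 92 h. Its rise was 4.57 ± 0.12, or 23.7-fold (adjusted p = 3.24e-11), against a change of -0.086 ± 0.12 in control discs. Ddc, the dopa decarboxylase needed for dopamine and for cuticle tanning, read 8.36, 8.46 and 8.40 at 116 h, against 5.28, 5.29 and 5.27 at 92 h, a rise of 3.13 ± 0.082. Control discs read 4.94, 5.24 and 5.10 at 116 h and 4.95, 4.85 and 5.14 at 92 h for Ddc, and the change of 0.11 ± 0.082 did not pass. wun2, a lipid phosphate phosphatase that steers migrating germ cells, rose by 3.55 ± 0.12, and vir-1, a marker of antiviral JAK/STAT activity, by 3.03 ± 0.084. mtg, a chitin-binding protein, rose by 3.01 ± 0.094, flap by 3.30 ± 0.16, Rcd2 by 3.20 ± 0.087 and Jhbp12, a putative juvenile hormone binder, by 3.17 ± 0.12. Against these rises control discs showed 1.07 ± 0.12 for wun2, 0.56 ± 0.084 for vir-1 and 0.96 ± 0.094 for mtg, and changes of -0.40 ± 0.16 for flap, -0.20 ± 0.087 for Rcd2 and 0.0095 ± 0.12 for Jhbp12, none of the last 3 passing.

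Of the 24 Osiris genes, a family of membrane proteins active in cuticle-forming cells, 3 rose and 2 fell in avl-RNAi discs, against 14.8% and 20.6% of all genes. Osi6 read 8.85, 6.15 and 5.86 at 116 h, against 4.002, 3.80 and 3.94 at 92 h, and its first replicate at 116 h stood well above the other 2. Its rise was 3.04 ± 0.55 (adjusted p = 0.000626). Osi14 rose by 1.78 ± 0.14 in avl-RNAi discs and fell by 2.05 on the log2 scale in control discs, an interaction of 3.83 ± 0.20 (adjusted p = 3.71e-08). Osi2 rose in both, by 1.88 ± 0.11 and 2.18 ± 0.11.

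Defence and stress genes divided by family. Of 34 glutathione transferases, which detoxify reactive compounds, 13 rose and 5 fell in avl-RNAi discs, against 5 and 9 in control discs, and 11 had a positive interaction and none a negative one. GstE6 read 9.997, 9.83 and 10.02 at 116 h, against 8.41, 8.86 and 8.41 at 92 h, and rose by 1.39 ± 0.11 (adjusted p = 5.51e-07). In control discs GstE6 fell, with a change of -1.76 ± 0.11, and the interaction was 3.15 ± 0.15. GstT4 rose by 1.39 ± 0.10 and by 0.50 ± 0.10, and GstD2† rose by 1.40 ± 0.25, where control discs showed -0.21 ± 0.25. Of 16 heat shock genes 1 rose and 7 fell. stv, a co-chaperone, rose by 0.61 ± 0.059 in avl-RNAi discs and changed by -0.63 ± 0.059 in control discs, a fall, and Hsp26† did the reverse, with -0.67 ± 0.091 and 1.19 ± 0.091.

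Among 17 immune genes 5 rose and none fell in avl-RNAi discs, with 2 rises and 5 falls in control discs. nec, a serpin that restrains the Toll pathway, rose by 1.005 ± 0.16, and dl, a Toll pathway factor, by 0.52 ± 0.063, although the mean over the probe sets of dl did not pass (adjusted p = 0.0891). The antimicrobial peptide genes Mtk† and DptB† changed by 0.041 ± 0.24 and 0.096 ± 0.23 and did not pass in avl-RNAi discs, while in control discs they fell by 1.21 and 0.91 on the log2 scale. AttA, AttB, AttC, CecA1, CecA2, CecC, DptA and Dro were not analysed here. Of 27 serpins 7 rose and none fell, and Spn77Ba rose by 0.93 ± 0.08 in avl-RNAi discs and by 0.96 ± 0.08 in control discs. None of 6 imaginal disc growth factors passed in avl-RNAi discs, although Idgf2 fell without replicate 3 at 92 h (adjusted p = 0.0454), and Idgf6 changed by 0.24 ± 0.16, against a fall with a difference of -1.24 ± 0.16 in control discs. Of 4 metallothioneins, metal-binding proteins, MtnD fell, with a change of -1.07 ± 0.33 (adjusted p = 0.0199), a call lost without replicate 3 at 116 h (adjusted p = 0.0687) and with the tissue covariates (adjusted p = 0.364). MtnA changed by 0.45 ± 0.23 without passing, though it rose without replicate 1 at 92 h (adjusted p = 0.0233).

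Among genes with a name that were called in avl-RNAi discs, the 5 largest negative interactions were those of ImpE2, Spn43Aa, St2, wbl and Cpr49Ac. All of them rose in control discs. Spn43Aa, a serpin, read 5.94, 6.67 and 6.11 at 116 h, against 5.04, 5.88 and 5.32 at 92 h in avl-RNAi discs, and 10.91, 11.17 and 11.55 at 116 h, against 5.41, 5.58 and 5.36 at 92 h in control discs. Its change was 0.83 ± 0.23 in avl-RNAi discs and 5.76 ± 0.23 in control discs, and the interaction -4.93 ± 0.33 (adjusted p = 3.15e-07). The rise in avl-RNAi discs was not called without replicate 1 at 92 h (adjusted p = 0.0641) or without replicate 2 at 116 h (adjusted p = 0.0617). St2, a sulfotransferase, rose by 0.997 ± 0.15 and by 5.04 ± 0.15, and Cpr49Ac, a cuticle protein, by 1.27 ± 0.32 and by 4.78 ± 0.32. wbl, an endoplasmic reticulum protein needed for dorsal-ventral axis formation, fell by 0.92 on the log2 scale in avl-RNAi discs and rose by 2.86 ± 0.16 in control discs. Outside these 5, eEF1alpha2, a translation elongation factor, rose in both, by 2.59 ± 0.22 and by 4.34 ± 0.22.

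The arrays at 168 h, for which no control arrays were analysed here, placed the 116 h values on a longer course within avl-RNAi discs. Ilp8 averaged 7.31 ± 0.39 at 92 h, 10.61 ± 0.21 at 116 h and 11.07 ± 0.052 at 168 h (SD, n = 3 each). upd2 was highest at 116 h, at 4.51 ± 0.028, 7.85 ± 0.16 and 6.26 ± 0.27 in the same order, and so was puc, at 7.66 ± 0.15, 9.66 ± 0.20 and 8.88 ± 0.12. TwdlE was also highest at 116 h, at 4.51 ± 0.44, 10.62 ± 0.11 and 7.33 ± 0.13. ImpE2 was highest at 168 h, at 5.22 ± 0.93, 7.85 ± 0.52 and 12.38 ± 0.29, and Spn43Aa likewise, at 5.41 ± 0.42, 6.24 ± 0.38 and 10.26 ± 0.29. Nplp4 was lower at each later age, at 13.65 ± 0.11, 11.22 ± 0.20 and 8.16 ± 0.44. These are levels and were not tested here.

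**Figure D4:**
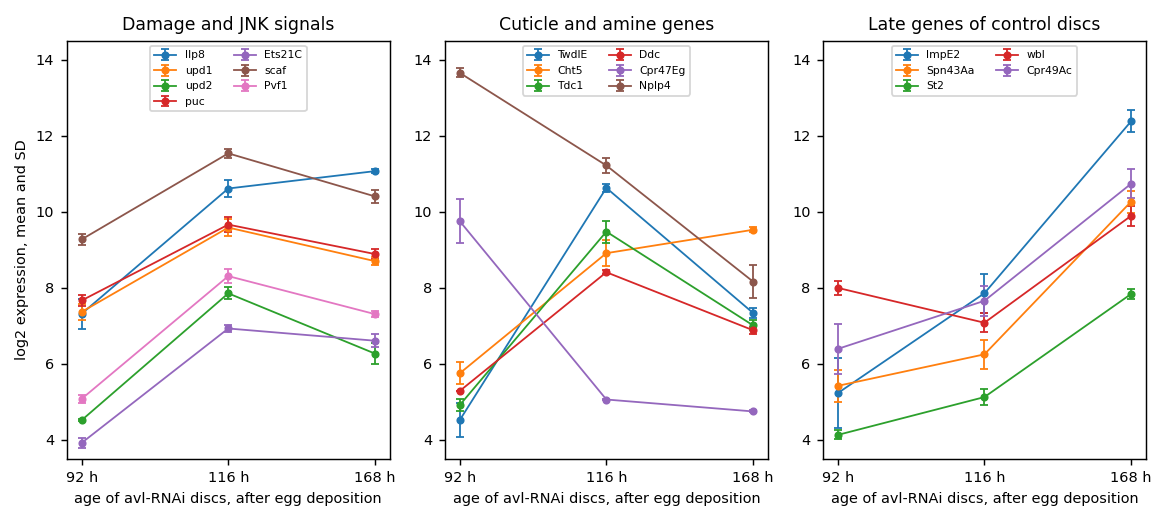
Mean and SD of log2 expression over 3 arrays at each age of avl-RNAi discs (92, 116 and 168 h) for 3 groups of genes named in the text. The JNK targets and Unpaired genes other than Ilp8 are highest at 116 h, TwdlE, Tdc1 and Ddc peak at 116 h, and the late genes of control discs are highest at 168 h.

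Markers of neighbouring larval tissues moved with age on the same arrays. Larval muscle genes averaged 7.28 to 7.90 on the arrays at 116 h and 8.55 to 9.12 at 92 h in avl-RNAi discs, and 8 of 10 fell. All 10 fell in control discs, and no muscle gene had an interaction that passed. Tm2, a muscle tropomyosin, changed by -1.86 ± 0.25 in avl-RNAi discs and -2.23 ± 0.25 in control discs. Of 18 gut genes, proteases and lysozymes, 2 fell in avl-RNAi discs and none was called in control discs. Their mean was 5.12 to 5.27 at 116 h and 5.98 to 6.87 at 92 h in avl-RNAi discs. In control discs 1 array at 116 h was high (6.57) and 1 at 92 h low (4.97). Without these 2 control arrays the interaction was called for 1471 genes, 690 positive and 781 negative. Jon25Bi, a gut protease, read 4.88, 5.04 and 5.38 at 116 h, against 9.65, 7.34 and 7.94 at 92 h, and Acbp4, one of 3 acyl-CoA binding protein genes among the 15 largest falls, read 5.39, 5.995 and 5.33 at 116 h, against 11.84, 9.09 and 9.69 at 92 h. Their changes were -3.21 ± 1.09 and -4.64 ± 1.29. The call of Acbp4 was lost without replicate 1 at 92 h (adjusted p = 0.0556), and that of Jon25Bi without any of 5 arrays, all but replicate 2 at 92 h (adjusted p of 0.0564 to 0.132).

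Fat body genes varied more within an age than between ages, at 9.31 to 11.24 at 116 h and 8.34 to 10.25 at 92 h, and none of the 4 passed. Fbp1, with a change of 2.11 ± 0.81, passed without replicate 1 at 116 h (2.84 ± 0.82, adjusted p = 0.0187) and with the replicate number as a block (adjusted p = 0.0269). None of 11 haemocyte markers passed, though the fall of Sr-CI did without replicate 3 at 116 h (adjusted p = 0.0169), with list means of 5.71 to 7.33 at 116 h and 6.31 to 6.56 at 92 h. Of 7 salivary gland glue genes 4 rose in avl-RNAi discs, and all 7 rose in control discs. Sgs7 changed by 2.91 ± 0.49 and 3.27 ± 0.49. Of 6 tracheal markers 4 rose, led by obst-A at 0.75 ± 0.093. moody, a receptor of the glial blood-brain barrier, read 9.74, 9.64 and 9.80 at 116 h, against 7.81, 7.75 and 7.35 at 92 h and rose by 2.09 ± 0.10, while the neuronal gene brp changed by 0.12 ± 0.079 and did not pass. The glial factor repo changed by -0.34 ± 0.11, a call lost without replicate 1 or 3 at 92 h or replicate 1 or 2 at 116 h (adjusted p of 0.0867 to 0.118). Of 4 adult muscle precursor genes, Him rose by 0.86 ± 0.13 and the other 3 did not pass.

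With the gut, muscle and fat body means of each array as covariates, 1720 genes were called in avl-RNAi discs, against 4247 without them, and 1642 of the 4247 kept their call and direction. Of the 374 genes called with at least a 2-fold change, 274 kept theirs. puc, Ilp8, scaf, Ets21C, Pvf1, upd1, upd2, chinmo, TwdlE and Cpr47Eg were among the genes still called. Jon25Bi, Acbp6, Vajk2, hlk, Sgs7, ImpE2 and Spn43Aa among the genes of large change were not. Genes marked † were not checked one by one in this fit. Among the other genes named above, wbl, Cpr49Ac, Kr-h1, dlp, Krn, yki, crb, Tm2, Him, repo and nub also lost their call. Some of these kept a similar size with a larger error: wbl changed by -1.05 ± 0.35 with the covariates and -0.92 ± 0.16 without, Him by 0.90 ± 0.30 and 0.86 ± 0.13, Kr-h1 by 0.86 ± 0.27 and 0.67 ± 0.12, and yki by 0.26 ± 0.11 and 0.25 ± 0.047. A call lost at a similar size does not show that the covariates removed the change. Others became smaller: Jon25Bi changed by -0.82 ± 0.44 with the covariates and -3.21 ± 1.09 without, Spn43Aa by 0.26 ± 0.49 and 0.83 ± 0.23, and Tm2 by -0.30 ± 0.11 and -1.86 ± 0.25. Jon25Bi belongs to the gut list and Tm2 to the muscle list. Each was adjusted for a mean that contains it, so a smaller change was built in for both. ImpE2 changed by 2.13 ± 0.77 with the covariates and 2.63 ± 0.36 without. By list, the rises in avl-RNAi discs with the covariates numbered 5 of 14 for the JNK cascade and 9 of 20 for endosomes and ESCRT. They numbered 5 of 19 for the extracellular matrix and 7 of 34 for glutathione transferases. Over all 11982 genes 710 rose in this fit, against 1773 without the covariates. In the same order, the list medians were 0.38, 0.39, 0.27 and 0.13 with the covariates and 0.32, 0.35, 0.31 and 0.14 without. Fewer calls at a similar median do not show that these rises were removed. The muscle means of the avl-RNAi arrays at 116 h all lay below those at 92 h, and so did the gut means. These covariates and age therefore overlap in this fit, and the part of the 3 tissues in the other results was not tested.

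**Figure D5:**
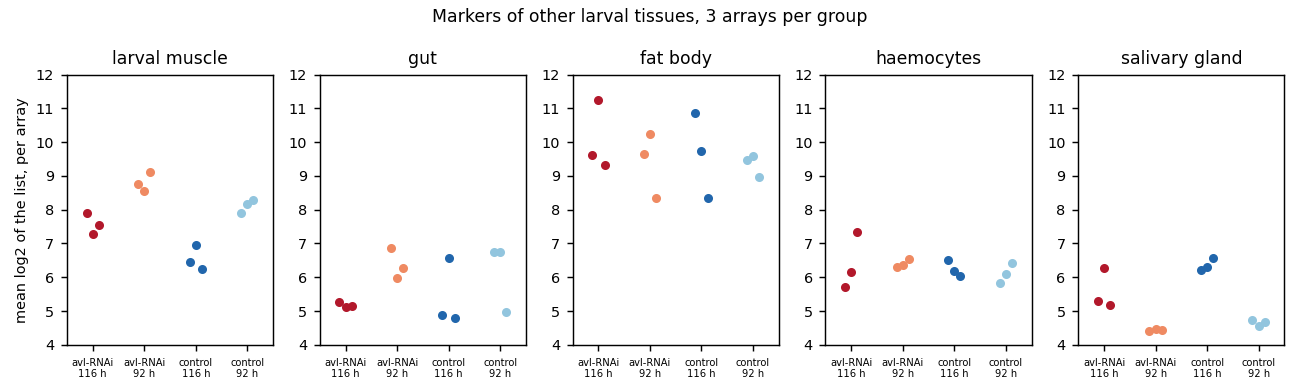
Mean log2 value over the measured markers of 5 other larval tissues on each array, 3 arrays per group, for avl-RNAi discs at 116 h and 92 h and control discs at 116 h and 92 h. Muscle genes are lower at 116 h in both genotypes, gut genes are lower at 116 h in avl-RNAi discs but mixed in control discs, and fat body genes spread widely within each group.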

How the data were processed

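The authors deposited normalized log2 expression for 18952 probe sets on each of 15 arrays; that the logarithm is to base 2 was read from the span of the numbers. Every array had a mean of 6.01. Partek and limma are named in the submitters' processing notes, without a role or version; background correction and normalization are not given in the sources used here. Arrays carry no read depth, so the 3 arrays per group limit the precision. The labels call the 3 arrays of a group separate samples; whether they came from separate cultures is not given, and p-values measure the spread between them.

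Probe sets were named from the platform annotation (13647 with 1 symbol, 402 with several, 4903 with none), with symbols updated through RefSeq for 13544. The probe set with the highest mean stood for its gene, giving 11982 genes, of which 1094 had several probe sets. Groups came from the labels. The values were tested as deposited by linear models in limma 3.58.1 (R 4.3.3; lmFit, then eBayes), 1 mean per group over all 15 arrays, 10 residual degrees of freedom, 2-sided, with Benjamini-Hochberg adjustment for each of 3 comparisons. The procedure was tested on simulated data.

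Named genes were Ilp8, puc, chinmo, Syx7, Mmp1 and upd3; the 15 largest rises and falls with non-overlapping ages and a name; the 5 largest of each direction called in both genotypes; the 5 largest interactions of each sign among genes called in avl-RNAi discs; and the 3 members of each of 46 lists with the smallest adjusted p. Members and lists were chosen with earlier results of these data known. Alternatives were other arrays in the fit, a replicate block, priors and weights, quantile and median scaling, filters on low genes, probe set means, a stricter threshold, tissue covariates and leaving out each array. Same-numbered avl-RNAi arrays at 116 h and 92 h had deviations correlated at 0.071, 0.131 and 0.256, and the other pairs at -0.23 to 0.066. In control discs the same-numbered pairs gave -0.409, 0.265 and 0.496. The labels give only a shared number, so the numbers were not taken to pair samples.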

Additional observations from a re-analysis of the deposited data

Results flagged for a closer look

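The change from 92 to 116 h differed between avl-RNAi and control discs for 2175 genes by limma's interaction test, and 88 of the named genes were among them. Their interactions, the log2 change in avl-RNAi discs minus that in control discs, are given by what each genotype did, and the threshold by itself lets about 1 in 20 of such calls be false.

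Genes that rose in avl-RNAi discs and fell in control discs were Ilp8 at 4.53, chinmo at 3.99, Osi14 at 3.83, upd1 at 3.37, dl at 0.83, GstE6 at 3.15, stv at 1.23 and moody at 2.96. Genes that rose in avl-RNAi discs and were not called in control discs included puc at 1.90, Tdc1 at 4.65, upd2 at 3.34, flap at 3.69, Rcd2 at 3.40, Jhbp12 at 3.16, Ddc at 3.01, Osi6 at 2.96, Ets21C at 2.94, Traf4 at 0.62 and scaf at 2.08. The others of this kind were Ptp61F at 0.71, S6k at 0.67, p53 at 1.01, scb at 1.34, ALiX at 0.73, ref(2)P at 0.30, nec at 1.24, Rel at 0.31, Spn42Da at 0.57, serp at 0.52 and verm at 0.58.

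Some genes rose in both genotypes. Those with a larger rise in avl-RNAi discs were TwdlE at 2.74, wun2 at 2.48, Pvf1 at 2.40, vir-1 at 2.47, mtg at 2.05, Jra at 0.41, Jheh2 at 0.58, dlp at 0.35, Chmp1 at 0.69, TSG101 at 0.40 and Spn55B at 0.44, and also GstT4 at 0.89 and eIF2A at 0.32. Those with a smaller rise there were ImpE2 at -6.12, eEF1alpha2 at -1.75, Spn43Aa at -4.93, St2 at -4.04, Cpr49Ac at -3.52, sr at -1.49, bab2 at -1.29, bab1 at -0.84 and Him at -0.79.

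Genes that fell in avl-RNAi discs and rose in control discs were wbl at -3.78, dve at -1.33, Doc1 at -1.35 and Osi24 at -0.74. Falls in avl-RNAi discs with no call in control discs had interactions for Lcp65Ac at -2.39, Brd at -0.39, S at -0.63, mTor at -0.30, Buffy at -0.44, Treh at -0.42, eIF1 at -0.26 and eIF2Bdelta at -0.31. Falls in both that were larger in avl-RNAi discs were Cpr47Eg at -1.83, CAH9 at -1.37, Lcp65Ag3 at -1.29, Lcp65Ae at -1.60, Cpr97Eb at -1.19, borr at -0.25, Cdk2 at -0.25, Prim1 at -0.28, Prim2 at -0.33, ATPsynD at -0.25 and RpS19b at -0.54, and also mRpL18 at -0.45, mRpL44 at -0.29, mRpL55 at -0.26, Rpt4 at -0.34, Prosalpha5 at -0.25 and Rpn3 at -0.32. The fall of Cpr47Ec was smaller in avl-RNAi discs, with an interaction of 1.12.

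Genes called in control discs alone also had interactions, positive where control discs fell, for MtnA at 1.28, Idgf2 at 0.72 and Idgf6 at 1.49, and negative where control discs rose, for en at -0.39, pnr at -1.16 and twi at -0.59.

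The interaction calls of 13 genes were lost in at least 1 fit that left out 1 array, at adjusted p of 0.0501 to 0.111 in those fits. They were Cpr47Ec, Brd, dlp, borr, Cdk2, Prim1, Prim2, Rel, Treh, mRpL44, mRpL55, eIF2A and Idgf2. The interactions of genes marked † were not checked in this way.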

How the results depend on the processing

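Leaving out 1 array at a time gave 3739 to 4146 called genes in avl-RNAi discs (1550 to 1710 higher, 2188 to 2441 lower), with 216 to 258 risen and 114 to 135 fallen at least 2-fold. The interaction then had 1737 to 2312 (766 to 953 positive, 971 to 1359 negative) and control discs 2605 to 2876 (1285 to 1456 higher, 1320 to 1472 lower). With gut, muscle and fat body covariates 1720 genes were called in avl-RNAi discs (710 higher, 1010 lower), 1391 in the interaction (727 negative) and 251 in control discs (156 higher, 95 lower), and nub turned to 0.037 ± 0.20, not called (adjusted p = 0.934). At adjusted p under 0.01 the interaction had 1231 genes, 586 positive and 645 negative. Median centring gave 1038 genes higher in control discs, and without the lowest 50% of genes 74 fell at least 2-fold in avl-RNAi discs. Leaving out both control arrays with unusual gut values, an alternative chosen after seeing the data, left 781 negative interactions. The median change of all genes was -0.011 as deposited, -0.0090 after quantile normalization and -0.071 after median centring.

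Samples share only a replicate number; with it as a block 4197 genes were called in avl-RNAi discs, 2070 in the interaction and 3185 in control discs. As a hint from the data, each avl-RNAi array at 116 h correlated best with the avl-RNAi array of its own number at 92 h. Of 1564 counts of risen or fallen list members recomputed under the alternatives, 229 moved by over 1.5 times. Among them, glycolysis genes had 2 rises and 2 falls with median centring and no rise with the tissue covariates. The 4 rises of salivary gland genes and the 4 of notum genes became 0 and 1 with these covariates. The medians of the glycolysis, salivary gland and notum lists were 0.087, 0.22 and 0.25 with the covariates, against 0.039, 1.25 and 0.18 without. The causes of these shifts were not tested. Leaving out 1 array ended the avl-RNAi call of 10 named genes (Acbp4, Jon25Bi, Spn43Aa, mamo, Dad, MtnD, VhaAC39-1, VhaM9.7-c, nub and repo), at adjusted p of 0.0506 to 0.186. The calls of genes marked † were not checked one by one in these fits. Genes missed at adjusted p but with p under 0.05 bring the unadjusted count in avl-RNAi discs to 5116.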
